A study of Mus musculus with 4 samples.

Results

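The genes described here are 46 genes of mitosis and the spindle, chosen by name as cell-cycle genes whose products run mitotic entry, the spindle checkpoint, the kinetochore, the spindle and cytokinesis. The choice was made with earlier results of these data known. All 46 were found by symbol among the 54838 genes listed in each file, each on 1 row, and all 46 passed the filter on low counts. RNA was sequenced from Hepa1-6, a mouse hepatocellular carcinoma cell line, in 2 groups of 2 libraries. NC 1 and NC 2 are wild type for Acvr2a, the gene of a type II activin receptor, and KO 1 and KO 2 are labelled as Acvr2a knockout. The design text calls the knockout cells subclones, and the sources used here do not say whether KO 1 and KO 2 are 1 subclone or several, how the gene was disrupted, or whether the libraries came from separate cultures. The p-values therefore rest on the spread between these libraries, which may be technical, and clone and genotype cannot be told apart. That spread is estimated largely across genes, so a p-value does not measure the spread of its own gene alone.

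The libraries held between 11597923 and 13910582 counts. Acvr2a itself was counted 81 and 108 times in NC and 75 and 97 times in KO, a log2 fold change of -0.21 (adjusted p = 0.433), so its RNA level did not separate the groups and the names follow the labels. As a total over the gene, it does not show whether the reading frame was cut. The hepatocyte markers Alb, Afp and Hnf4a were present in every library, at 106 CPM or more (counts scaled to the size of the library), while Ttr and Serpina1a were at or near 0. The 10 listed hepatocyte markers together summed to 1570.4 to 1681 CPM in NC and 1439 to 1615 CPM in KO. Of 8 leukocyte markers 6 had a count, with sums of 24.3 to 27.9 CPM in NC and 51.6 to 63.5 CPM in KO, nearly all of it Cd68, a lysosomal gene. Cd3e was at 0 and Ptprc, the pan-leukocyte gene, reached 0.152 CPM. Of 8 fibroblast and endothelial markers 6 had a count, with sums of 12.3 to 13.9 CPM in NC and 25.4 to 28.6 CPM in KO, mostly Pdgfra, and Cdh5 and Lyve1 were at 0. By the test described further on, 4 of 8 tested hepatocyte markers were lower and 1 higher in KO, with log2 fold changes of -1.21 for Afp and -0.89 for Foxa2. Of 2 leukocyte markers that could be tested Cd68 was higher, and of 3 fibroblast and endothelial markers Pdgfra (0.97) and Col1a1 (2.73) were higher. Col1a1 had very few counts, at 0.53 and 0.36 CPM in NC and 2.88 and 3.04 CPM in KO (SE 0.51). The part of these markers in the results on mitosis genes was not tested.

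Mitosis begins when the kinase CDK1, bound to cyclins A and B, is switched on by CDC25 phosphatases and by Polo-like and Aurora kinases. The spindle then captures chromosomes at their kinetochores, and a checkpoint holds the ubiquitin ligase APC/C in check until every kinetochore is attached. Securin and cyclin B are then destroyed and the chromosomes separate. Most of these genes are transcribed late in the cell cycle, in G2 and mitosis, so in bulk RNA their level follows both the share of cells in those phases and the RNA per cell, which cannot be told apart here. Their promoters are known for a short element called the CHR, bound by the MuvB complex (as DREAM when repressed, with B-MYB and FOXM1 when active), that sits downstream of CCAAT boxes bound by NF-Y. In liver, hepatocytes rarely divide, and hepatoma lines such as Hepa1-6 divide continuously.

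Promoter sequences from RefSeq (GRCm38.p6), 250 bases before to 50 after the start, matched 37 of the 46 members; Ccna2, Cdc25c, Aurkb, Spc24, Kif20a, Tpx2, Incenp, Smc4 and Foxm1 had no entry. Searched on both strands for TTTGAA or TTCGAA, the letters of the CHR, 31 of 37 windows (83.8%) held at least 1, against 1321 of 9382 windows (14.1%) over the genes tested that have a window. At least 2 copies of CCAAT, on either strand, were in 19 of 37 windows (51.4%), against 15.7% over the genes tested. The CHR letters were in 8 of 11 windows of members that were lower in the knockout libraries, in 2 of 3 of members that were higher, and in 21 of 23 of members that did not pass. The letters were thus found beside falls, beside rises and in members that did not pass; a match describes the window and is not a bound site. The stretches below are 150 bases each, read 5′ to 3′ on the gene's strand and ending before the annotated start, with the CHR letters and CCAAT boxes of either strand in capitals. They are shown for the 2 largest rises (Cenpf, chr1:189688087-189688236, minus strand, and Cdc25b, chr2:131186798-131186947, plus strand), for Plk1 (chr7:122159285-122159434, plus strand) and Cdc20 (chr4:118437353-118437502, minus strand), which fell, for Nuf2 (chr1:169531465-169531614, minus strand), which fell and whose window holds neither motif, and for Top2a (chr11:99024190-99024339, minus strand), which did not pass and has the most CHR matches of the members, 4 in its window.
Cenpf: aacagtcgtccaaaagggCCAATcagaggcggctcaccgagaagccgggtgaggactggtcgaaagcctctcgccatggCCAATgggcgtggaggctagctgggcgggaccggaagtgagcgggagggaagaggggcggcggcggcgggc
Cdc25b: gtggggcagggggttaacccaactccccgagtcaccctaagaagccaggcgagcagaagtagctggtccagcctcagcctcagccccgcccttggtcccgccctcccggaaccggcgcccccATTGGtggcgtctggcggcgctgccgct
Plk1: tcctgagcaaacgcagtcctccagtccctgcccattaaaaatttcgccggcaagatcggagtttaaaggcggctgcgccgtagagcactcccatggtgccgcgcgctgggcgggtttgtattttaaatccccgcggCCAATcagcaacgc
Cdc20: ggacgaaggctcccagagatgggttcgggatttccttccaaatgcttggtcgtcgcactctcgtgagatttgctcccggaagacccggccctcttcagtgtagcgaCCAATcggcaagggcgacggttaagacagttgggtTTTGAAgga
Nuf2: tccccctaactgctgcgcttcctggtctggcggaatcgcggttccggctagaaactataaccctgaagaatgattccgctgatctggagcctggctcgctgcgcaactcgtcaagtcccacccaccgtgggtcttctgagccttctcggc
Top2a: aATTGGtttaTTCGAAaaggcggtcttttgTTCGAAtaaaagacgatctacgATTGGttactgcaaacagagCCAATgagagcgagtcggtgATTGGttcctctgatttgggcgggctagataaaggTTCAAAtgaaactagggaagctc
The Cdc20 stretch shows a CCAAT box followed by TTTGAA close to the start, the Top2a stretch holds CCAAT boxes between CHR letters, and the Plk1 stretch overlaps an exon of the noncoding gene Gm15489. In Cenpf, Cdc25b and Plk1 the capitals are CCAAT boxes, and their CHR letters lie just past the start, beginning at positions 3, 8 and 31 counted from 1 at the first transcribed base.

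Of the 46 members, 12 were lower and 3 were higher in the knockout libraries at an adjusted p under 0.05 (edgeR quasi-likelihood test, Benjamini-Hochberg over the 12510 genes tested), and 31 did not pass. The genes that fell were Plk1, Bub3, Mad2l1, Cdc20, Nuf2, Ccna2, Ube2c, Cdca8, Pttg1, Ccnb2, Ect2 and Spc25, and those that rose were Cenpf, Cdc25b and Cenpe. Among all genes tested 37.9% passed, 19.7% higher and 18.2% lower. The members' 32.6% is close to the first of these, and their 26.1% lower and 6.52% higher stand on either side of the others; no list test was made, so nothing is read from this split beyond the counts. The median log2 fold change of the members was -0.10, against -0.0037 over all genes tested, with values from -0.56 to 0.65. In 31 members (67.4%) the NC and KO libraries did not overlap, 22 with KO below and 9 with KO above, against 69.4% of all genes tested. The extremes correspond to changes of -32.2% (Plk1) and 56.8% (Cenpf). On the length-scaled TPM values (the authors' transcript abundances, corrected for length; limma on log2(TPM + 1)) 3 members were higher and 3 lower, where 17.3% of all genes tested passed. Those genes were not evenly split, with 1467 higher and 691 lower. The median log2 fold change there was -0.039 for the members and 0.060 over all genes tested.

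**Figure D1:**
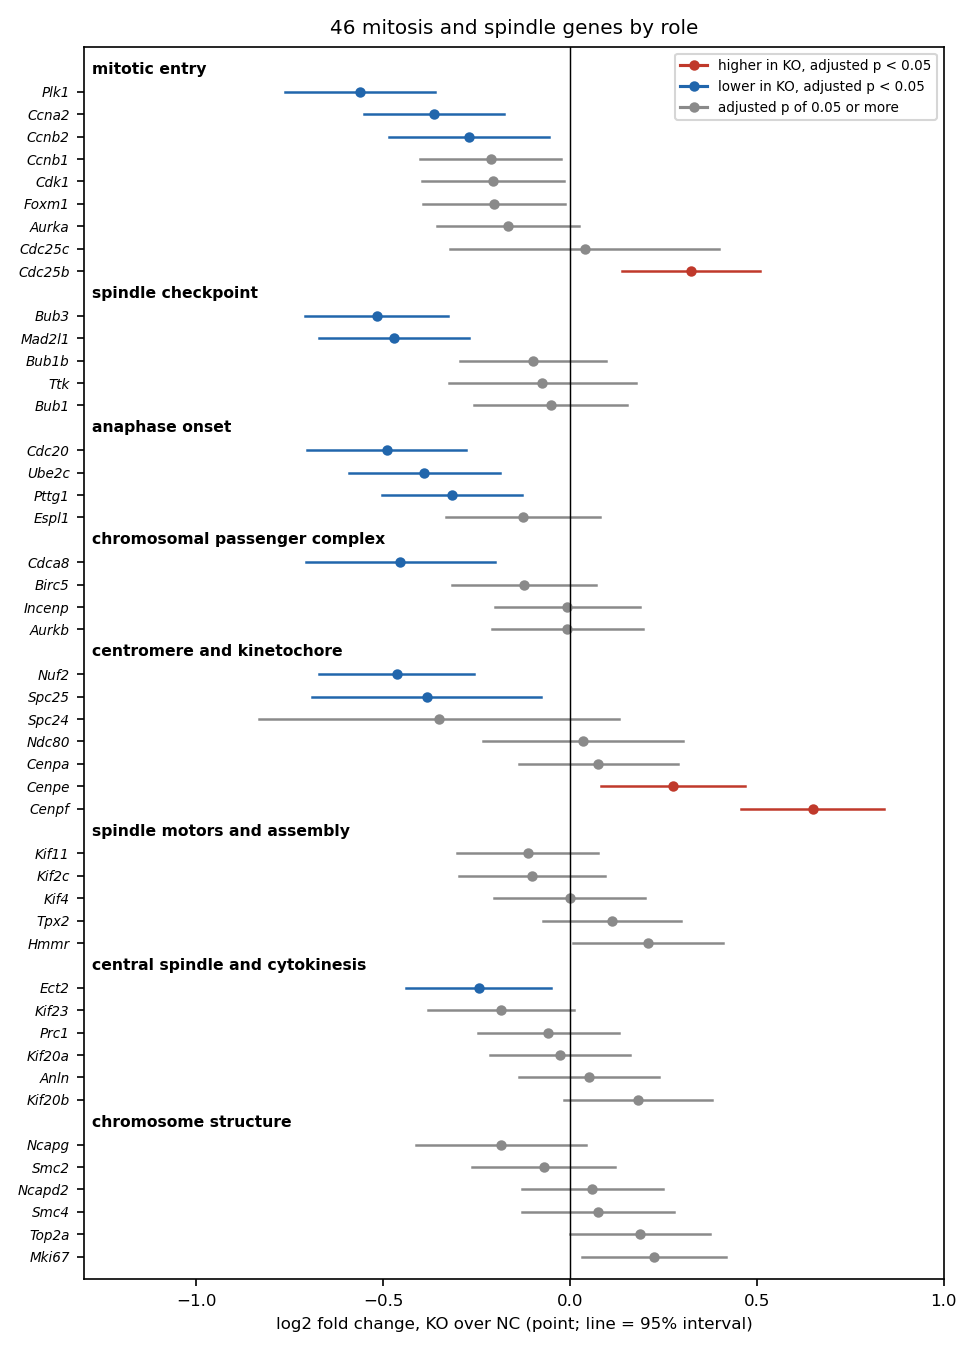
Log2 fold change (KO over NC, horizontal axis) of each of the 46 members with its 95% interval, grouped by role; red (higher in KO) and blue (lower) mark adjusted p under 0.05. Plk1, at -0.56, and Cenpf, at 0.65, are the extremes, and most intervals of the spindle motor, cytokinesis and chromosome structure groups span 0.

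All gene coordinates given here are GRCm38, from GENCODE M21 matched by gene ID, and cover the whole gene. Exons of 11 members overlap a gene on the other strand, which touches 6 of the 15 called members: Plk1 (Gm44985), Ccna2 (Exosc9), Cdc20 (Elovl1), Ube2c (Tnnc2), Cdca8 (9930104L06Rik) and Cdc25b (Spef1). The library kit keeps the strand, but whether the counting used it is not given in the sources used here, so reads from the shared stretch cannot be told apart.

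Of 9 mitotic entry genes 3 fell and 1 rose. Plk1 (chromosome 7, 122159439 to 122169873, plus strand), the Polo-like kinase that drives entry and spindle assembly, was at 175 and 210.4 CPM in the NC libraries (1, then 2) and at 135 and 127 CPM in the KO libraries. Both KO libraries lay under both NC libraries, and the log2 fold change was -0.56 (adjusted p = 5.90e-05, SE 0.10). Ccna2 (chromosome 3, 36564865 to 36572150, minus strand), the cyclin of S phase and G2, was at 184 and 173 CPM in the NC libraries (1, then 2) and at 139 and 139 CPM in the KO libraries, with a log2 fold change of -0.36 (adjusted p = 0.00244, SE 0.091). The KO libraries were almost equal here and both below NC. Ccnb2, a B-type cyclin (chromosome 9, 70407692 to 70421547, minus strand), was measured at 48.02 and 46.7 CPM in NC against 41.3 and 37.2 CPM in KO, a log2 fold change of -0.27 (adjusted p = 0.0410, SE 0.10). That call was lost without NC 1, NC 2 or KO 2, at log2 fold changes of -0.26 without NC 1 (adjusted p = 0.147), -0.29 without NC 2 (adjusted p = 0.0908) and -0.20 without KO 2 (adjusted p = 0.250), and the adjusted p over all alternatives, unfiltered TPM included (where no gene passed), ran from 0.0246 to 0.338. With all 4 libraries it was also lost in DESeq2 (adjusted p = 0.146), with at least 50 counts in 2 libraries (0.0544) and with total counts only (0.0802). Cdc25b (chromosome 2, 131186949 to 131198497, plus strand) went the other way. This phosphatase, which starts CDK1 activation at the centrosome, was at 153 and 160.2 CPM in the NC libraries (1, then 2) and at 196 and 197 CPM in the KO libraries, a log2 fold change of 0.32 (adjusted p = 0.00577, SE 0.090); without NC 1 the value was 0.29 (adjusted p = 0.0761), with adjusted p over the alternatives from 0.00250 to 0.104. Its relative Cdc25c was at 11.4 and 12.3 CPM in NC against 14.6 and 9.77 CPM in KO, so the KO libraries lay on both sides of NC.

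The central kinase itself and its main cyclin did not pass. Cdk1 (chromosome 10, 69335146 to 69352938, minus strand) was at 149 and 161 CPM in the NC libraries (1, then 2) and at 139 and 129 CPM in the KO libraries, a log2 fold change of -0.21 (95% interval -0.40 to -0.016, adjusted p = 0.0806). Ccnb1 (chromosome 13, 100778650 to 100786570, minus strand), the main mitotic cyclin, had 110.0 and 106 CPM in NC against 92.2 and 94.2 CPM in KO and a log2 fold change of -0.21 (95% interval -0.40 to -0.025, adjusted p = 0.0679). Foxm1 (chromosome 6, 128362967 to 128376146, plus strand), the transcription factor that drives many late cell-cycle genes, was measured at 279 and 275 CPM in NC against 257 and 224 CPM in KO, a log2 fold change of -0.20 (95% interval -0.39 to -0.015, adjusted p = 0.0829). In each of these both KO libraries were under both NC libraries, and the upper end of the interval lay just under 0. Without KO 1, Cdk1 and Foxm1 passed, at -0.26 and -0.31 (adjusted p = 0.0475 and 0.0147), with ranges over the alternatives from 0.0475 to 0.733 and from 0.0147 to 0.849. Aurka, the Aurora kinase of the centrosome, had a log2 fold change of -0.17 (95% interval -0.35 to 0.024, adjusted p = 0.162), also with no overlap between the groups. Foxm1 shares exon sequence on its own strand with Gm44596 and Tex52, and small numbers of reads assigned to the pseudogene Ccnb1-ps (24.4 over all libraries) could be exchanged with Ccnb1.

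Within the spindle checkpoint, 2 of 5 genes fell, and they were the adaptor Bub3 and the Cdc20 inhibitor Mad2l1. Bub3 (chromosome 7, 131560222 to 131571895, plus strand) was at 255 and 262 CPM in the NC libraries (1, then 2) and at 192 and 168 CPM in the KO libraries, with a log2 fold change of -0.52 (adjusted p = 8.49e-05, SE 0.093). Mad2l1 (chromosome 6, 66535390 to 66547220, plus strand), which encodes MAD2, was at 171 and 146 CPM in the NC libraries (1, then 2) and at 109 and 119.9 CPM in the KO libraries, with a log2 fold change of -0.47 (adjusted p = 4.04e-04, SE 0.10). In both genes the groups did not overlap. The checkpoint kinases did not pass. Bub1 had a log2 fold change of -0.051 (95% interval -0.26 to 0.15, adjusted p = 0.723), Bub1b, which encodes BUBR1, one of -0.10 (95% interval -0.29 to 0.10, adjusted p = 0.436), and Ttk, which encodes MPS1, one of -0.074 (95% interval -0.33 to 0.18, adjusted p = 0.668).

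Of the 4 anaphase onset genes 3 fell in the count fit, and none of these passed on filtered TPM. Cdc20 (chromosome 4, 118432901 to 118437352, minus strand), the coactivator that turns on the APC/C, was at 88.9 and 80.8 CPM in the NC libraries (1, then 2) and at 66.6 and 54.04 CPM in the KO libraries, and its log2 fold change was -0.49 (adjusted p = 4.99e-04, SE 0.10). Ube2c (chromosome 2, 164769898 to 164778822, plus strand), the ubiquitin-conjugating enzyme of the APC/C, was at 433 and 454 CPM in the NC libraries (1, then 2) and at 373 and 304 CPM in the KO libraries. Its log2 fold change was -0.39 (adjusted p = 0.00267, SE 0.10), and -0.25 without KO 2 (adjusted p = 0.0650), with adjusted p over the alternatives from 8.44e-06 to 0.322. KO 2 was the lowest library for both genes. Pttg1 (chromosome 11, 43420250 to 43426251, minus strand) encodes securin, the inhibitor of separase, and was at 253 and 230.5 CPM in the NC libraries (1, then 2) and at 192 and 196 CPM in the KO libraries. Its log2 fold change of -0.32 (adjusted p = 0.00741, SE 0.091) was -0.26 without NC 1 (adjusted p = 0.110), and the adjusted p over the alternatives ran from 0.00345 to 0.167. Espl1, which encodes separase, was at 93.9 and 101 CPM in NC against 98.4 and 80.5 CPM in KO, and its groups overlapped; without KO 1 it passed (log2 fold change -0.28, adjusted p = 0.0402, range over the alternatives 0.0402 to 0.961). Ube2c and Pttg1 had the highest length-scaled levels of all 46 members, with means of 596 and 545 TPM over the 4 libraries, followed by Cdk1 at 226 TPM, while Cdc25c was lowest at 7.90 TPM.

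**Figure D2:**
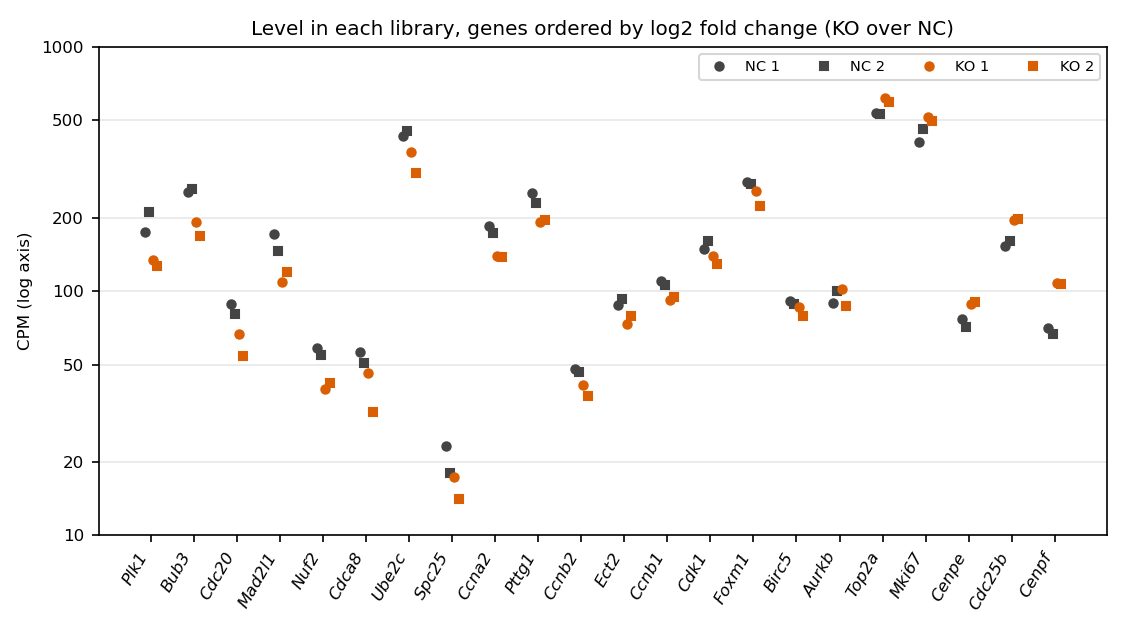
CPM in each library (log axis) for the 15 called members and for Mki67, Top2a, Cdk1, Ccnb1, Foxm1, Aurkb and Birc5, ordered by log2 fold change. NC libraries are dark and KO libraries orange, circles are library 1 and squares library 2; Cdc20, Cdca8 and Ube2c show KO 2 clearly under KO 1, and Aurkb shows the groups overlapping.

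The chromosomal passenger complex corrects wrong attachments and later guides cytokinesis, and 1 of its 4 genes fell. This was Cdca8 (chromosome 4, 124918465 to 124939311, minus strand), which encodes borealin, at 56.1 and 50.98 CPM in the NC libraries (1, then 2) and at 46.1 and 32.1 CPM in the KO libraries, a log2 fold change of -0.45 (adjusted p = 0.00462, SE 0.12). KO 2 was the lowest library by a clear margin, and the value was -0.22 without KO 2 (adjusted p = 0.193) and -0.74 without KO 1 (adjusted p = 2.97e-07); over the alternatives the adjusted p ran from 2.97e-07 to 0.486. The kinase of the complex, Aurkb (chromosome 11, 69045647 to 69051664, plus strand), was at 89.01 and 101 CPM in the NC libraries (1, then 2) and at 102 and 87.1 CPM in the KO libraries. Its groups overlapped, with a log2 fold change of -0.0069 (95% interval -0.21 to 0.20, adjusted p = 0.968). Birc5 (chromosome 11, 117849251 to 117855743, plus strand), which encodes survivin, was at 91.3 and 88.7 CPM in the NC libraries (1, then 2) and at 85.8 and 79.4 CPM in the KO libraries, with KO below NC but a log2 fold change of -0.12 (95% interval -0.32 to 0.069, adjusted p = 0.315). Incenp, the scaffold, had a log2 fold change of -0.0072 (95% interval -0.20 to 0.19, adjusted p = 0.964). Partners of 1 complex thus had different results, and the difference between them was not tested.

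Centromere and kinetochore genes moved both ways, 2 higher and 2 lower of 7. Cenpf (chromosome 1, 189640606 to 189688086, minus strand), a large coiled-coil protein of the outer kinetochore that accumulates in G2, had the lowest p of all members, at 70.5 and 66.9 CPM in the NC libraries (1, then 2) and at 108 and 107 CPM in the KO libraries. The libraries of each group were nearly equal, and the log2 fold change was 0.65 (adjusted p = 4.33e-06, SE 0.093). Cenpe (chromosome 3, 135212537 to 135273611, plus strand), the kinesin that moves chromosomes to the spindle equator, was at 76.6 and 71.1 CPM in the NC libraries (1, then 2) and at 88.6 and 90.2 CPM in the KO libraries. Its log2 fold change was 0.28 (adjusted p = 0.0216, SE 0.094), and it lost the call at 0.22 without NC 2 (adjusted p = 0.190) and 0.26 without KO 2 (adjusted p = 0.0685), and with all 4 libraries in DESeq2 (adjusted p = 0.0553), with adjusted p from 0.0108 to 0.190 over the alternatives. The NDC80 complex, which grips the microtubule, held the falls. Nuf2 (chromosome 1, 169497934 to 169531464, minus strand) was at 58.4 and 54.6 CPM in the NC libraries (1, then 2) and at 39.7 and 42.1 CPM in the KO libraries, with a log2 fold change of -0.46 (adjusted p = 6.48e-04, SE 0.10). Spc25 (chromosome 2, 69193895 to 69206194, minus strand) was at 23.1 and 17.98 CPM in the NC libraries (1, then 2) and at 17.3 and 14.1 CPM in the KO libraries, with a log2 fold change of -0.38 (adjusted p = 0.0443, SE 0.15). That call was lost at -0.20 without NC 1 (adjusted p = 0.415) and -0.24 without KO 2 (adjusted p = 0.290), and the adjusted p over the alternatives ran from 0.00716 to 0.415; NC 2 and KO 1 were almost level. With all 4 libraries it was also lost in DESeq2 (adjusted p = 0.171), with at least 50 counts in 2 libraries (0.0508) and with total counts only (0.0629). Spc24 was the least covered of the complex, at 7.12 and 6.79 CPM in NC against 6.91 and 3.998 CPM in KO, a log2 fold change of -0.35 (95% interval -0.83 to 0.13, adjusted p = 0.247), with KO 2 under the other libraries and a call without KO 1 (log2 fold change -0.80, adjusted p = 0.0236, range over the alternatives 0.0236 to 0.983). Ndc80 itself was at 22.2 and 20.1 CPM in NC against 21.8 and 21.4 CPM in KO, with overlapping groups. Cenpa, the histone variant that marks centromeres, overlapped too, with a log2 fold change of 0.076 (95% interval -0.14 to 0.29, adjusted p = 0.599).

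None of the 5 spindle motor and assembly genes passed. Kif11, the motor that pushes the poles apart, had a log2 fold change of -0.11, the depolymerase Kif2c -0.10, the chromokinesin Kif4 -0.0012, the AURKA activator Tpx2 0.11 and the spindle pole protein Hmmr 0.21. Hmmr was nearest to passing, at 62.8 and 56.5 CPM in NC against 66.9 and 70.8 CPM in KO (adjusted p = 0.0949), and its groups did not overlap. In the central spindle and cytokinesis group 1 of 6 fell. Ect2 (chromosome 3, 27097222 to 27153878, minus strand), the exchange factor that activates RhoA at the cleavage furrow, was at 87.5 and 93.01 CPM in the NC libraries (1, then 2) and at 73.6 and 78.8 CPM in the KO libraries, a log2 fold change of -0.24 (adjusted p = 0.0410, SE 0.094). The call did not hold at -0.29 without NC 1 (adjusted p = 0.0681), -0.20 without NC 2 (adjusted p = 0.240) or -0.20 without KO 1 (adjusted p = 0.167), and the adjusted p over the alternatives ran from 0.0365 to 0.747. With all 4 libraries it was also lost in DESeq2 (adjusted p = 0.102), with at least 50 counts in 2 libraries (0.0566) and with total counts only (0.0887). The kinesins Kif23, Kif20a and Kif20b had log2 fold changes of -0.19, -0.027 and 0.18, and the microtubule bundler Prc1 and the furrow protein Anln had -0.058 and 0.052, with adjusted p from 0.130 to 0.846.

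Chromosome structure genes did not pass in any of 6 cases, and Mki67 and Top2a, both widely used as proliferation markers, had positive values. Mki67 (chromosome 7, 135689784 to 135716361, minus strand), which encodes Ki-67, a protein on the surface of mitotic chromosomes, was at 407 and 462 CPM in the NC libraries (1, then 2) and at 517 and 499 CPM in the KO libraries. KO was above NC, with a log2 fold change of 0.23 (95% interval 0.032 to 0.42, adjusted p = 0.0600). With all 4 libraries it passed with at least 50 counts in 2 libraries (adjusted p = 0.0331), with the robust fit (0.0417) and with total counts only (0.0430). Without NC 2 the log2 fold change was 0.32 (adjusted p = 0.0391), and 0.13 without NC 1 (adjusted p = 0.462); over the alternatives the adjusted p ran from 0.0331 to 0.887. Top2a (chromosome 11, 98992943 to 99024189, minus strand), topoisomerase II alpha, which untangles sister chromatids, was at 537 and 529 CPM in the NC libraries (1, then 2) and at 617 and 596 CPM in the KO libraries. Both KO libraries again lay above both NC libraries, with a log2 fold change of 0.19 (95% interval -0.00035 to 0.37, adjusted p = 0.108). Of the condensin genes, which compact chromosomes, Smc2 had a log2 fold change of -0.071, Smc4 0.075, Ncapd2 0.060 and Ncapg -0.18, with adjusted p from 0.195 to 0.641.

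The KO libraries differed from each other across the set. KO 2 was below KO 1 in 35 of 46 members (76.1%), where the share over all genes tested was 49.2%. NC 2 was below NC 1 in 29 members (63.0%), against 50.2% of all genes. Relative to each gene's mean over the 4 libraries, the members' median on the log2 scale was 0.068 for NC 1 and 0.046 for NC 2, then 0.021 for KO 1 and -0.11 for KO 2. These are medians over members that went both ways, and single members differed: Cenpf and Ccna2 had almost equal values in KO 1 and KO 2, and Nuf2 and Mad2l1 were lower in KO 1. The members' CPM summed to 6117 and 6151 in NC and to 6015 and 5626 in KO. Without KO 1 the members' median log2 fold change was -0.19, against -0.0049 over all genes of that fit. Without KO 2 it was -0.020, against -0.0027. The genes Cenpf, Plk1, Bub3, Mad2l1, Cdc20, Nuf2 and Ccna2 passed with any 1 library left out and in each of the 8 alternative fits on counts with all 4 libraries.

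**Figure D3:**
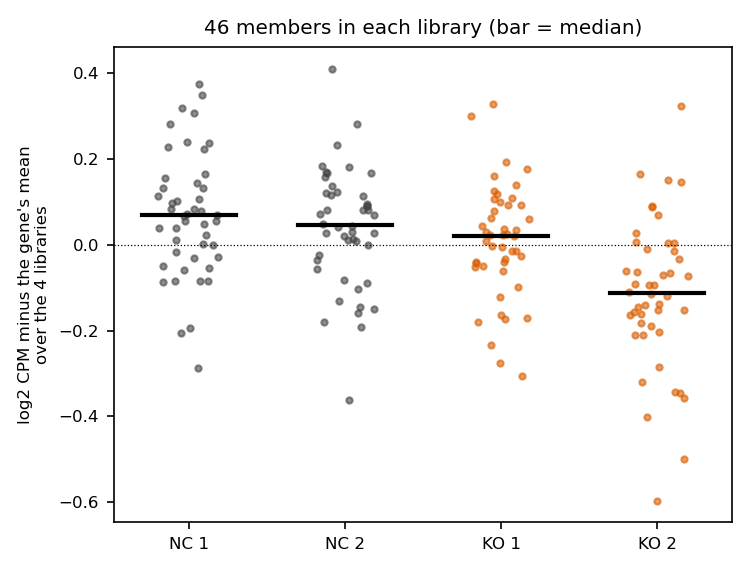
Each point is 1 of the 46 members, plotted as its log2 CPM in a library minus its mean over the 4 libraries (vertical axis), and bars are medians. The bars step from 0.068 in NC 1 to 0.021 in KO 1 and -0.11 in KO 2.

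Transcript length moved with the result. Of the 23 shorter members (effective length, the usable transcript length weighted over isoforms, 443 to 1985 bases), 11 fell and 0 rose, with a median log2 fold change of -0.24. Among the 23 longer members (2172 to 9819 bases), 1 fell and 3 rose, with a median of -0.0072. The longest, Mki67, and the shortest, Pttg1, lay on opposite sides of 0. For comparison, all genes tested were divided at the same lengths. In the range of the shorter members 1189 of 5344 genes fell and 786 rose (median -0.068), and in that of the longer members 853 of 5986 fell and 1485 rose (median 0.063). Spearman's rho between log2 fold change and length was 0.53 across the 46 members, which share libraries and are not independent, and 0.18 across all 12510 genes. With a smooth length trend removed from each library, these were 0.28 and 0.0043, and 3 members were called higher and 9 lower. Ccnb2, Ect2, Spc25 and Pttg1 lost their calls there (log2 fold changes -0.21, -0.22, -0.30 and -0.17), Foxm1 gained one (log2 fold change -0.26, adjusted p = 0.0190, with a range over the alternatives from 0.0147 to 0.849), and Mki67 went to 0.019.

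**Figure D4:**
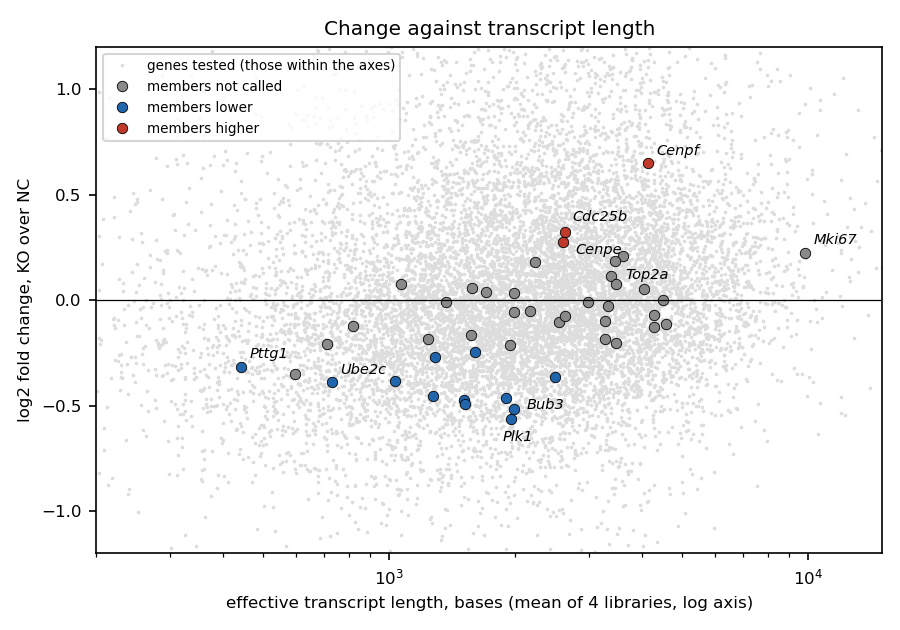
Log2 fold change (KO over NC, vertical axis) against effective transcript length in bases (log axis) for the members, coloured by call, over the genes tested in grey. The falls gather at lengths up to 1985 bases, with Ccna2 above, and Cenpf, Cdc25b and Cenpe lie to their right.

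The effective length is estimated per library from the isoforms read, so a gene can differ in TPM where its count does not. Ccnb1 had an effective length of 2065 and 2076 bases in NC and 1829 and 1810.0 in KO, and its level was 56.7 and 57.1 TPM in NC and 58.3 and 57.8 TPM in KO. The lower count of this cyclin was thus not seen on the TPM scale. For Cenpe the lengths were 2972 and 2696 bases in NC and 2344 and 2389 in KO, and its TPM were 27.4 and 29.4 against 43.7 and 41.9, a wider gap than in CPM. In Espl1 the length differed already within NC, at 2988 and 4411 bases, with 4866 and 4913 in KO. Its TPM were 33.45 and 25.62 in NC against 23.41 and 18.19 in KO, so both KO values lay under both NC values. In CPM its groups overlapped, and on log2(TPM + 1) limma gave -0.48 (adjusted p = 0.0905). No isoform was tested, since the values are totals over each gene. Plk1, Bub3 and Mad2l1 were the falls that also passed on filtered TPM, as did the rises of Cenpf, Cdc25b and Cenpe.

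Other genes of the same machinery were counted the same way. Over 5 further lists of mitotic genes, 31 of 125 tested (24.8%) were lower and 10 (8%) higher, with 32.8% called and a median log2 fold change of -0.10. Among all genes tested 37.9% were called, 18.2% lower and 19.7% higher, and no list was tested against these shares. The condensin and cohesin list (18.8% lower, 12.5% higher) and the spindle and centrosome list (17.1% each way) were near or below them. Other centromere and kinetochore genes had 9 of 35 lower and 0 higher, led by Pmf1 (-0.81), a subunit of the MIS12 complex, with Cenpq (-0.54), Cenpi (-0.40) and Ska2 (-0.47). Other APC/C and checkpoint genes had 8 of 20 lower and 1 higher, among them the subunits Anapc15 (-0.47), Anapc4 (-0.34) and Cdc16 (0.35), and Trip13 (-0.39), which disassembles the MAD2 complex. Condensin and cohesin genes had 3 of 16 lower and 2 higher: the cohesin loader Nipbl (0.41) and the releaser Wapl (0.32) rose, and Stag1 (-0.33) and Stag2 (-0.27) fell. Spindle and centrosome genes had 6 of 35 lower and 6 higher, with Kif22 (-0.55) and the centriole kinase Plk4 (-0.42) lower and Ckap2l (0.35) and Cenpj (0.81) higher. Late cell-cycle genes had 5 of 19 lower and 1 higher, with the kinase Pbk (-0.78), Hmgb2 (-0.43), Lmnb1 (-0.49) and Cks1b (-0.39) lowest in p. The values in parentheses are log2 fold changes of genes past 0.05.

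Regulators of these genes and the phase before them were counted as well. The shares over all genes tested, 18.2% lower and 19.7% higher, stand beside these counts too. Of the E2F, DREAM and MuvB genes, 8 of 20 were lower and 2 higher. E2f8 (-0.64), E2f3 (-0.60) and the MuvB subunit Lin9 (-0.56) fell by these log2 fold changes and Rb1 (0.73), the retinoblastoma gene, rose. Of the brakes on mitotic entry and the opposing phosphatases 6 of 16 were lower and 2 higher. The CDK1 inhibitory kinase Wee1 (-0.69), the checkpoint kinase Chek1 (-0.85) and the G1 kinase inhibitor Cdkn2c (-0.62) were lower. Gadd45a, a stress-induced gene that can hold cells before mitosis, rose from 5.37 and 4.40 CPM to 18.5 and 16.9 CPM, by 1.86 on the log2 scale (± 0.18, SE). Genes of the G1/S transition and DNA replication had 24 of 36 lower and 0 higher, with a median of -0.43 against -0.10 for the mitosis members; the difference between these lists was not tested. Tyms (-1.10), Rrm2 (-0.88), Mcm5 (-0.78) and Rrm1 (-0.63) had the lowest p, and KO 2 was below KO 1 in 35 of these 36 genes.

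**Figure D5:**
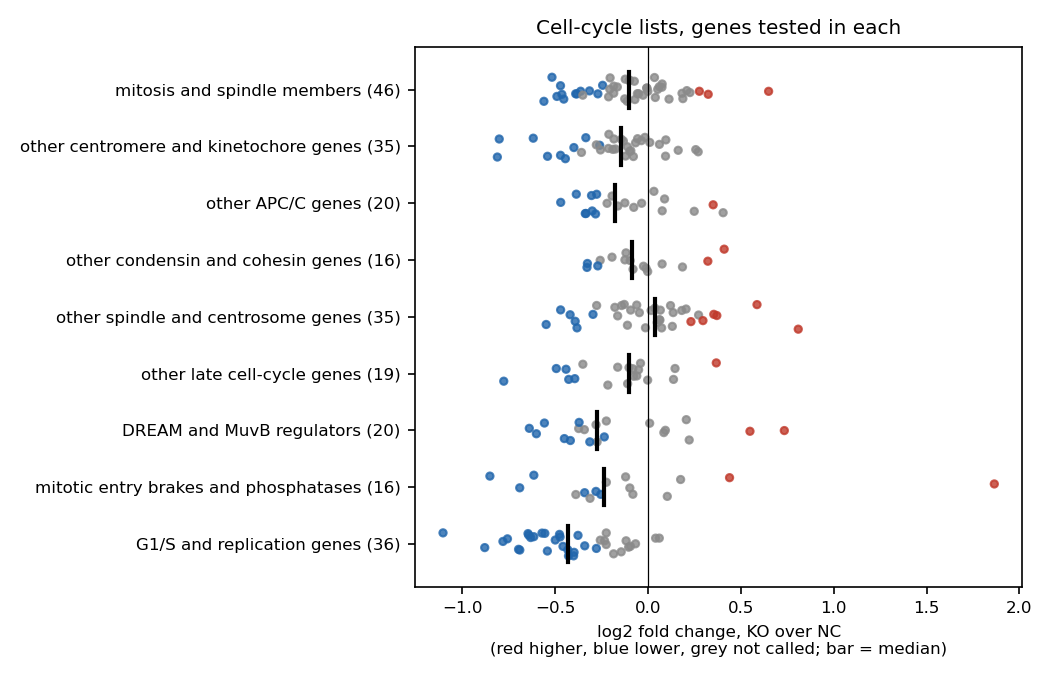
Log2 fold change (KO over NC, horizontal axis) of each tested gene in the mitosis and spindle set and 8 other cell-cycle lists, with the median as a bar. The members' bar is at -0.10, that of the G1/S and replication genes at -0.43, and that of the other spindle and centrosome genes at 0.037.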

How the data were processed

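RNA from 4 Hepa1-6 samples was sequenced from directional libraries, per the labels' protocols. The authors deposited 1 gene table per sample with RSEM column names; STAR, RSEM, FastQC, DESeq2 and GRCm38 (mm10) are named in the submitters' processing notes, without versions or order, and annotation release and strand setting are not given in the sources used here. The deposited expected counts are estimated counts, not normalised, per the file headers, and were rounded (totals moved by at most 1.88e-04%). The deposited TPM, per the file headers, are the authors' length-scaled values, used as an alternative. The authors' FPKM column, per the file headers, was not used. The effective length column is RSEM's, per the file headers, and other lengths were not used.

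filterByExpr kept 12510 genes, which held at least 99.9% of each library; TMM factors lay between 0.981 and 1.02. Groups were compared with edgeR 4.0.16 (glmQLFit, glmQLFTest; R 4.3.3), group as the only term, threshold 0.05 after Benjamini-Hochberg adjustment. CPM take each library's TMM-scaled total as 1e6 counts. Alternatives used DESeq2 1.42.0 and limma 3.58.1. The test was tried on simulated counts as a check of the code, and no result given here rests on it. Intervals are 95% and cover counting error and shared spread only. Members, roles and lists were chosen with earlier results of these data known. Per-library values are given for called members (up to 16 by p) and for Mki67, Top2a, Cdk1, Ccnb1, Plk1, Aurkb, Birc5 and Foxm1, and up to 4 called genes are named per other list. The stretches of promoter shown, and any further gene with its values, were chosen after the values were seen. Marker lists cover hepatocytes, leukocytes, and fibroblasts with endothelium.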

Additional observations from a re-analysis of the deposited data

How the results depend on the processing

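In the 8 alternative fits on counts with all 4 libraries, 2 to 4 members were higher and 9 to 12 lower, and 3217 to 5006 genes passed in all. On filtered TPM 3 members were lower with a pseudocount of 1 and 3 with 0.1, and 2158 and 2099 genes passed in all, 68.0% and 68.0% of them higher against 51.9% in the count fit; the cause was not tested. On unfiltered TPM limma called 0 genes and 0 members, higher or lower, with 4506 genes and 11 members (4 higher, 7 lower) at an unadjusted p under 0.05. Leaving out 1 library gave 2 to 3 members higher, 8 to 15 lower, 3507 to 4488 genes in all and a members' median of -0.19 (without KO 1) to -0.020 (without KO 2); the lone library of a group is then assumed to vary like the other group. With the replicate number as a block, 3 members were higher, 12 lower and 5006 genes passed in all, with no member's call changed. Nothing shows what the numbers pair, and the correlation of same-numbered deviations was -0.012. The median log2 fold change over all genes of a fit moved as well, from -0.0037 in the count fit. It was 0.060 on filtered log2(TPM + 1), 0.037 without the filter, 0.070 with a pseudocount of 0.1 and 0.028 with total counts only. A small positive value in those fits can thus lie below the median of all genes. Members that had not passed changed sign under some alternatives. On log2(TPM + 1), with or without the filter, these were Aurkb 0.15, Ccnb1 0.029, Incenp 0.046, Kif20a 0.029, Smc2 0.035 and Spc24 0.11, and with a pseudocount of 0.1 Aurkb 0.16, Ccnb1 0.029, Incenp 0.047, Kif20a 0.030, Smc2 0.036 and Spc24 0.12 (log2 fold changes). With total counts only they were Aurkb 0.026, Incenp 0.026, Kif20a 0.0056 and Kif4 0.032, with at least 50 counts in 2 libraries Aurkb 0.015, Incenp 0.014 and Kif4 0.020, and with the length trend removed Anln -0.030 and Aurkb 0.038. Over the fits without 1 library the signs of Aurkb (-0.12 to 0.10), Bub1 (-0.16 to 0.051), Cdc25c (-0.28 to 0.30), Cenpa (-0.030 to 0.18), Espl1 (-0.28 to 0.0096), Incenp (-0.12 to 0.091), Kif20a (-0.079 to 0.021), Kif4 (-0.063 to 0.056), Ncapd2 (-0.0048 to 0.12), Ndc80 (-0.037 to 0.10) and Smc4 (-0.044 to 0.19) changed. The 2 libraries a group and the intervals given with the values limit what can be told.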
